A study of Oryza sativa with 24 samples.

Results

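Brassinosteroids are steroid hormones of plants that promote cell elongation and division. Outside the cell the hormone is bound by the receptor kinase BRI1 together with its co-receptor BAK1. Inside, this turns off kinases of the GSK3 type, of which GSK2 is one in rice, and so frees the transcription factors that these kinases hold back. In rice the hormone is known for its effects on plant height, leaf angle, panicle form and grain size, and its synthesis is held down by its own signalling.

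Transcript counts of 8 rice genes of this pathway were followed in developing inflorescences, out of 26480 loci in the deposited table. The genes were listed by identifier, for their known roles: the receptor OsBRI1 (LOC_Os01g52050) and its co-receptor OsBAK1 (LOC_Os08g07760), the inhibitory kinase GSK2 (LOC_Os05g11730), the transcriptional regulators OsBZR1 (LOC_Os07g39220) and DLT (LOC_Os06g03710), and the synthesis genes D11 (LOC_Os04g39430), D2 (LOC_Os01g10040) and BRD1 (LOC_Os03g40540). All 8 were in the table and passed the filter on low counts. The names were given with the identifiers, and the deposited table does not pair identifiers with names.

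The study compared the tap mutant with the wild type (WT), all in the rice line named 9522, at inflorescence lengths of 3 mm and 2 mm and at a high and a low temperature, with 3 libraries in each of 8 groups. The groups were tap and WT at high temperature and 3 mm, tap and WT at low temperature and 3 mm, tap and WT at high temperature and 2 mm, and tap and WT at low temperature and 2 mm. The mutant is named tap in the genotype labels and ild in the sample titles. The series title presents TAP as a gene that the panicle and its spikelets need when it is hot, which makes the difference between the genotypes at each temperature the question. Details not given in the sources used here include the degrees and duration of each temperature, the mutated locus, the kind of mutation and any pooling of inflorescences. The mutant was therefore not checked through its own transcript, and the tissue label was not checked against marker genes.

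The high-temperature libraries held 19819257 to 21305381 counts and the low-temperature libraries 20368521 to 20948603. The high- and low-temperature columns are named in different styles, and no label says whether these 2 sets were grown, sequenced or counted together, so temperature and a difference between the sets cannot be told apart in any value below that crosses them. The mutant's high-temperature columns are named iHT and were assigned to tap by inference. Of 17 loci that were on in one genotype and off in the other at low temperature, all 9 of the tap loci and all 8 of the WT loci were higher in the same genotype in the high-temperature columns. Levels are counts scaled to a common library size (CPM), with library sizes adjusted by TMM, a method that sets the bulk of loci equal between libraries. They are not divided by transcript length, so levels of different genes are not compared. In whole inflorescences, fewer cells that express a gene and less RNA per cell cannot be told apart.

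The genes were read at between 86 counts in a library (D2) and 13694 (OsBRI1). OsBRI1 had a mean CPM above that of 99.3% of the tested loci, OsBZR1 above 97.4%, OsBAK1 above 94.6%, DLT above 92.2%, D11 above 89.8%, GSK2 above 83.8%, BRD1 above 63.8% and D2 above 36.4%. DLT varied most across the groups, with a ratio of 5.22 between its highest and lowest group means, and OsBRI1 least, with a ratio of 1.64. The SD within a group was 0.744% to 21.6% of the mean over all genes and groups, and the highest of these was D11 in tap inflorescences of 2 mm at low temperature.

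**Figure D1:**
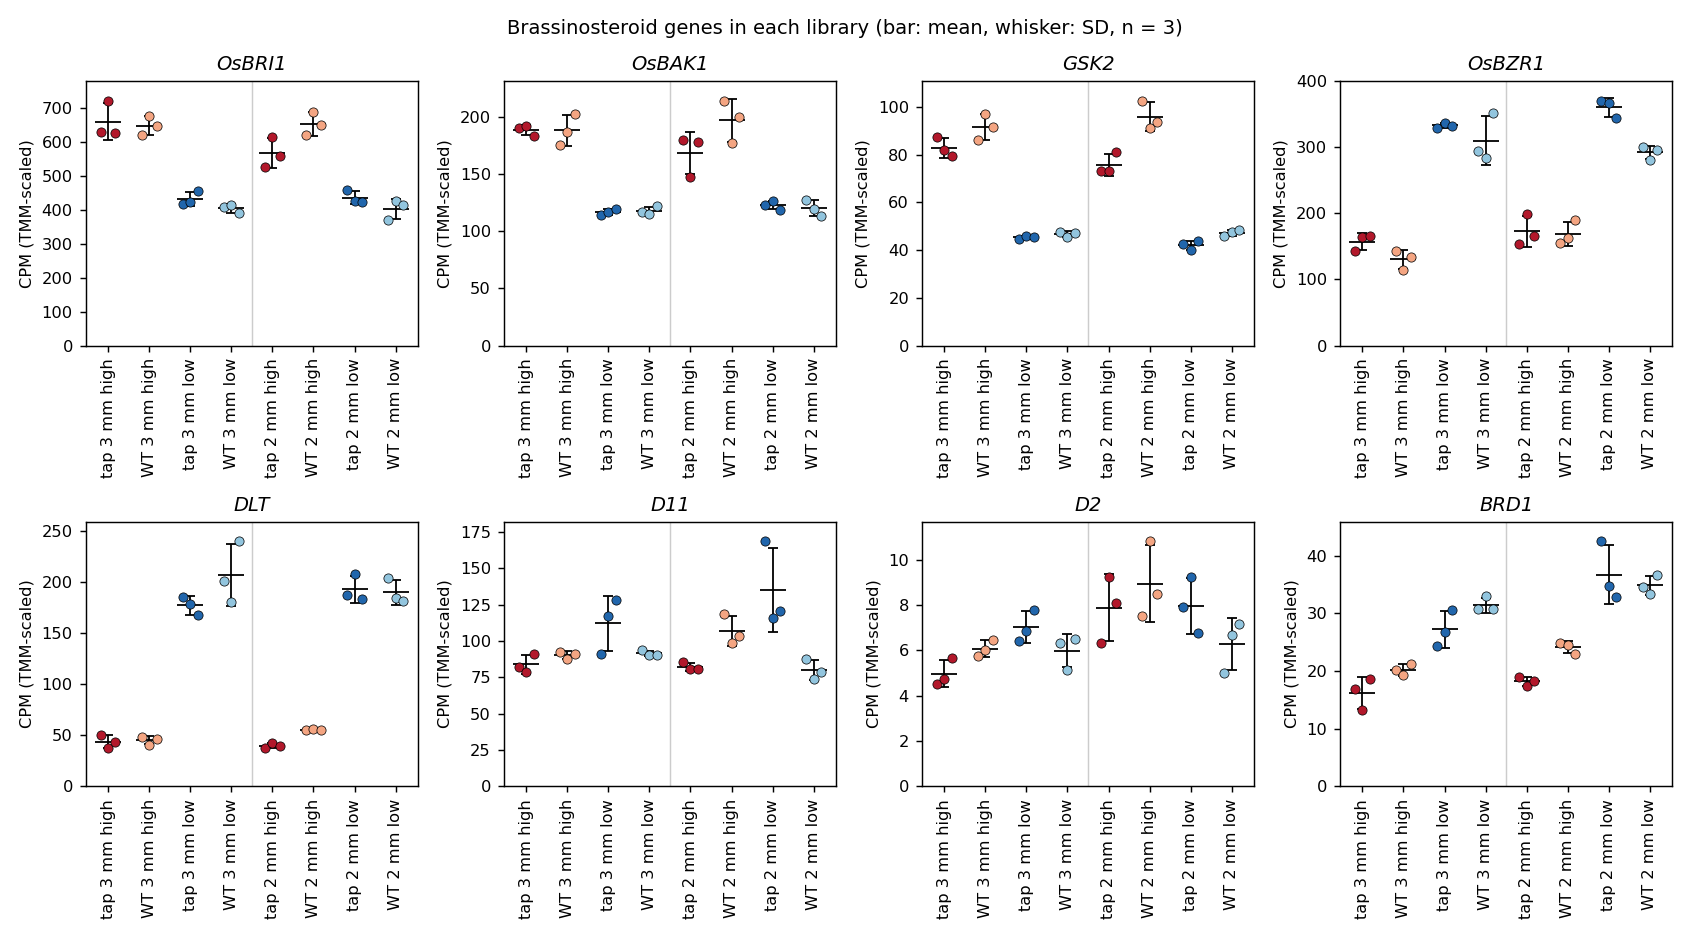
Levels of the 8 genes in CPM (TMM-scaled) in each library, by genotype, length and temperature, where points are libraries, bars are means and whiskers are SDs over 3 libraries. OsBRI1, OsBAK1 and GSK2 stand higher at high temperature and OsBZR1, DLT and BRD1 lower, in each genotype and at each length, while D11 and D2 follow no single order by temperature.

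The clearest contrast in the pathway lay between the temperatures. OsBRI1, OsBAK1 and GSK2 were higher at high temperature in tap and WT at each length, and OsBZR1, DLT and BRD1 were lower. D11 and D2 had no single direction, as both were lower in tap at 3 mm and higher in WT at 2 mm. Called loci are those with an adjusted p under 0.05 in edgeR's quasi-likelihood test. In tap inflorescences of 3 mm all 8 genes were called, 3 higher and 5 lower, where 68.6% of all tested loci were called, 32.9% higher and 35.7% lower. In tap at 2 mm 7 genes were called, 3 higher and 4 lower, where 69% of loci were called, 32.5% higher and 36.5% lower. In WT at 3 mm 6 were called, 3 in each direction, where 65.8% of loci were called, 30.8% higher and 35% lower. In WT at 2 mm all 8 were called, 5 higher and 3 lower, where 63.8% of loci were called, 29.8% higher and 34.1% lower. With most loci called between the temperatures, these counts set the genes little apart from the rest. The median log2 change of the 8 genes was -0.46, -0.37, 0.0023 and 0.47 in these 4 comparisons, where that of all tested loci was -0.042, -0.055, -0.047 and -0.054. Without TMM scaling the medians of all loci became -0.21, -0.18, -0.17 and -0.22, a shift of all genes in the lower direction.

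Both receptor genes were higher at high temperature. OsBRI1 had 628, 721 and 627 CPM in tap at high temperature and 3 mm, compared with 418, 422 and 456 CPM at low temperature. At 2 mm tap libraries had 527, 613 and 558 CPM at high temperature, compared with 457, 426 and 423 CPM at low temperature. In every genotype and length the lowest high-temperature library lay above the highest low-temperature one. WT libraries had 619.9, 676 and 648 CPM at high temperature and 3 mm and 409, 414 and 389 CPM at low temperature. The 2 mm WT libraries had 619, 688 and 649 CPM at high temperature and 370.2, 425 and 413 CPM at low temperature. The log2 rise was 0.61 ± 0.086 (SE, adjusted p = 3.5e-07 by edgeR) in tap at 3 mm and 0.38 ± 0.086 (adjusted p = 0.0003) in tap at 2 mm. It was 0.68 ± 0.087 (adjusted p = 5.1e-08) in WT at 3 mm and 0.69 ± 0.087 (adjusted p = 3.8e-08) in WT at 2 mm. Without TMM scaling the rise in tap at 2 mm was 0.25 (adjusted p = 0.0059). OsBAK1, whose product pairs with the receptor, had group means of 189 ± 4.5 and 169 ± 18.3 CPM (SD, n = 3) in tap at 3 mm and 2 mm at high temperature, compared with 117 ± 2.49 and 123 ± 3.74 CPM at low temperature. Its WT means were 188 ± 13.8 and 197 ± 18.8 CPM at high temperature, compared with 118 ± 3.3 and 120.5 ± 7.01 CPM at low temperature. OsBAK1 rose by 0.69, 0.45, 0.67 and 0.71 on the log2 scale in tap at 3 mm, tap at 2 mm, WT at 3 mm and WT at 2 mm. In that order, 20.3%, 28.5%, 18.2% and 16% of tested loci were higher by at least as much. For OsBRI1 these shares were 23%, 31.5%, 18% and 16.5%.

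GSK2, the kinase that holds the pathway in check, also rose at high temperature. Tap libraries of 3 mm had 87.3, 81.8 and 79.3 CPM at high temperature, compared with 44.8, 45.8 and 45.5 CPM at low temperature. Those of 2 mm had 73.0, 73.0 and 81.1 CPM at high temperature, compared with 42.4, 40.04 and 43.8 CPM at low temperature. The sets stood far apart beside the scatter within a group. WT libraries of 3 mm had 86.1, 97.0 and 91.6 CPM at high temperature and 47.6, 45.3 and 47.2 CPM at low temperature. At 2 mm WT libraries had 103, 91.3 and 93.7 CPM at high temperature and 45.7, 47.4 and 48.4 CPM at low temperature. The rise was 1.82-fold in tap and 1.96-fold in WT at 3 mm, and 1.8-fold in tap and 2.03-fold in WT at 2 mm. At 2 mm, 16.3% of the tested loci were higher by at least as much as GSK2 in tap and 8.82% in WT.

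The transcriptional regulators moved the other way. OsBZR1 encodes the factor that GSK2 phosphorylates, and its active form controls hormone-responsive genes. Tap libraries had 143, 163 and 166 CPM of OsBZR1 at high temperature and 3 mm, compared with 329.7, 337 and 332 CPM at low temperature. At 2 mm tap libraries had 154, 198 and 165 CPM at high temperature, compared with 370.4, 367 and 344 CPM at low temperature. No high-temperature library reached the lowest low-temperature one. In WT the libraries had 143, 115 and 135 CPM at high temperature and 3 mm and 294, 283 and 352 CPM at low temperature. For 2 mm WT inflorescences the values were 155, 162 and 190.0 CPM at high temperature and 299.9, 281 and 296 CPM at low temperature. OsBZR1 was 2.12-fold lower at high temperature in tap and 2.37-fold lower in WT at 3 mm, and 2.09-fold and 1.73-fold lower at 2 mm.

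DLT, a GRAS-family regulator that acts in brassinosteroid responses and is another target of GSK2 in rice, showed the largest temperature difference of the 8 genes. Tap libraries had 50.1, 37.2 and 43.1 CPM at high temperature and 3 mm, compared with 186, 179 and 168 CPM at low temperature. At 2 mm they had 37.4, 42.3 and 39.4 CPM at high temperature, compared with 188, 208 and 183 CPM at low temperature. WT libraries had 48.2, 40.5 and 46.2 CPM at high temperature and 3 mm, compared with 202, 180.1 and 240.1 CPM at low temperature. The 2 mm WT libraries had 55.5, 55.8 and 55.0 CPM at high temperature and 204, 184 and 182 CPM at low temperature. The highest of all these high-temperature values was less than the lowest low-temperature value by more than the whole range within any group. The log2 change was -2.03 ± 0.11 (SE, edgeR adjusted p = 3.5e-16) in tap at 3 mm, -2.28 ± 0.11 (adjusted p = 2.8e-17) in tap at 2 mm, -2.20 ± 0.11 (adjusted p = 6.1e-17) in WT at 3 mm and -1.78 ± 0.11 (adjusted p = 6e-15) in WT at 2 mm. This is 4.08-fold, 4.86-fold, 4.61-fold and 3.43-fold lower at high temperature. Among all tested loci 10.5%, 8.95%, 9.4% and 11.4% were lower by at least as much.

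**Figure D2:**
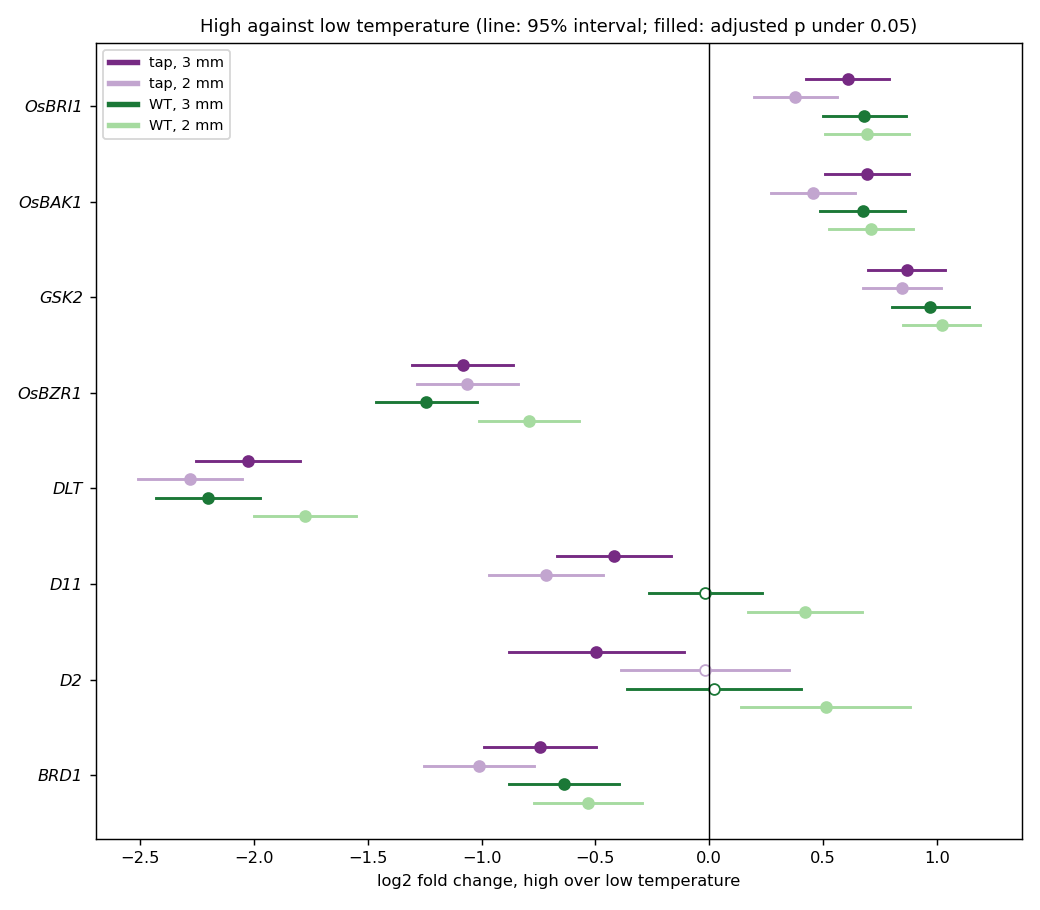
Log2 fold change of each gene, high over low temperature, for tap and WT at 3 mm and 2 mm, where lines are 95% intervals and filled points have an adjusted p under 0.05 in edgeR. DLT lies between -2.28 and -1.78 and GSK2 between 0.85 and 1.02, while D11 lies at -0.72 in tap and 0.42 in WT at 2 mm.

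The synthesis genes did not share a temperature pattern. BRD1 encodes an oxidase of the last steps of brassinosteroid synthesis. It had 16.8, 13.2 and 18.7 CPM in tap at high temperature and 3 mm, compared with 24.3, 26.8 and 30.7 CPM at low temperature. In tap at 2 mm it had 19.0, 17.4 and 18.2 CPM at high temperature, compared with 42.5, 34.8 and 32.9 CPM at low temperature. WT libraries of 3 mm moved the same way, with 20.1, 19.2 and 21.3 CPM at high temperature, compared with 30.7, 32.9 and 30.7 CPM at low temperature, and the temperatures did not overlap. At 2 mm WT libraries had 24.9, 24.5 and 22.9 CPM at high temperature, compared with 34.6, 33.3 and 36.6 CPM at low temperature. BRD1 was 1.68-fold lower at high temperature in tap and 1.56-fold lower in WT at 3 mm, and 2.02-fold and 1.45-fold lower at 2 mm.

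D11 encodes a cytochrome P450 of brassinosteroid synthesis. At 2 mm its temperature difference ran in opposite directions in the genotypes. Tap libraries had 85.2, 80.7 and 80.5 CPM at high temperature, compared with 169, 116 and 121 CPM at low temperature. WT libraries had 119, 98.8 and 103 CPM at high temperature, compared with 87.4, 73.6 and 78.4 CPM at low temperature. Thus all 3 tap libraries were lower at high temperature, and all 3 WT libraries were higher, than any library of their genotype at low temperature. The log2 change was -0.72 ± 0.12 in tap (SE, edgeR adjusted p = 3.9e-06) and 0.42 ± 0.12 in WT (adjusted p = 0.0025). The tap library of replicate 1 at low temperature stood highest, and without it the change in tap was -0.52 (adjusted p = 0.00017). Without TMM scaling the change in WT was 0.25 (adjusted p = 0.064). At 3 mm tap libraries had 81.8, 78.8 and 91.2 CPM at high temperature, compared with 91.3, 117 and 128 CPM at low temperature, a log2 change of -0.42 ± 0.12 (adjusted p = 0.0024). WT libraries of 3 mm had 92.5, 87.6 and 91.3 CPM at high temperature and 93.6, 90.4 and 90.6 CPM at low temperature, with a log2 difference of -0.017 (95% interval -0.27 to 0.23).

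D2, another cytochrome P450 gene of the synthesis route, was the least abundant of the 8 in counts, with 86 to 215 per library. Tap libraries had 4.51, 4.75 and 5.64 CPM at high temperature and 3 mm, compared with 6.41, 6.83 and 7.78 CPM at low temperature. The log2 fall was -0.50 ± 0.18 (SE, edgeR adjusted p = 0.017). In WT at 2 mm D2 had 7.52, 10.8 and 8.48 CPM at high temperature and 4.97, 6.67 and 7.15 CPM at low temperature, a log2 rise of 0.51 ± 0.17 (adjusted p = 0.012). Neither call withstood every omission. The first was lost without replicate 3 at low (-0.41, adjusted p = 0.075) or replicate 1 at high temperature (-0.42, adjusted p = 0.072). The second was lost without replicate 1 at low (0.37, adjusted p = 0.088) or replicate 2 at high temperature (0.34, adjusted p = 0.12), and without TMM scaling (0.34, adjusted p = 0.091). In tap at 2 mm the difference was -0.019 (95% interval -0.39 to 0.35) and in WT at 3 mm 0.022 (-0.36 to 0.40).

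More of the 8 genes were called between tap and WT at high temperature and 2 mm than in the other genotype comparisons. There 5 of the 8 genes were lower in tap and 0 higher, where 18.6% of tested loci were lower and 18.4% higher. The median log2 difference was -0.28 over the 8 genes and 0 over all tested loci. By edgeR's test 6 of the 8 had an unadjusted p under 0.05, a rule for which no share over all loci is given here. DESeq2 called 5 of the 8, where it called 34.6% of loci. The difference was largest for DLT, whose libraries are given above. Its tap libraries, at 37.4 to 42.3 CPM, all lay below the WT libraries, at 55.0 to 55.8 CPM, and its log2 difference was -0.48 ± 0.11 (SE, adjusted p = 0.00065), or 1.4-fold lower. BRD1 averaged 18.2 ± 0.811 CPM in tap and 24.1 ± 1.05 CPM in WT (SD, n = 3), a log2 difference of -0.41 ± 0.12 (adjusted p = 0.0065). GSK2 averaged 75.7 ± 4.67 CPM in tap and 95.9 ± 5.96 CPM in WT, with -0.34 ± 0.079 (adjusted p = 0.0011). For these 3 genes the calls remained whichever library was left out. Among all tested loci 15.9%, 19.7% and 23.5% were lower by at least as much as DLT, BRD1 and GSK2. The genotypes did not overlap for 5 of the 8 genes, DLT, BRD1, GSK2, D11 and OsBRI1, all lower in tap, where 21.6% of tested loci lay below WT without overlap. Counts of calls compare poorly between the temperatures, since all 24 libraries shared 1 estimate of the spread. Fitted on the 12 libraries of 1 temperature, 32.9% of loci were called at 2 mm and high temperature, in place of 37%. At 2 mm and low temperature 22.2% were called, in place of 15%. Of the 8 genes, 4 were then called at 2 mm and high temperature.

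D11 and OsBAK1 were also called lower in tap at that length and temperature, but not in every fit with a library left out. D11 averaged 82.1 ± 2.69 CPM in tap and 106.9 ± 10.4 CPM in WT (SD, n = 3), with no overlap and a log2 difference of -0.38 ± 0.12 (SE, edgeR adjusted p = 0.012). Of all tested loci 21.2% were at least as low. D11 was called in 4 of the 6 fits with a library left out. It was at -0.34 (adjusted p = 0.053) without replicate 3 of tap and at -0.27 (adjusted p = 0.1) without replicate 1 of WT. OsBAK1 had 179.7, 148 and 179 CPM in tap and 215, 177 and 200.1 CPM in WT, which overlap, and -0.23 ± 0.087 (adjusted p = 0.040). Its call was lost without tap replicate 2 (-0.11, adjusted p = 0.35), tap replicate 3 (-0.25, adjusted p = 0.060), WT replicate 1 (-0.14, adjusted p = 0.29) or WT replicate 3 (-0.22, adjusted p = 0.094). With the 6 compared libraries alone OsBAK1 was at -0.21 (adjusted p = 0.17), and its call was also lost with DESeq2 size factors (adjusted p = 0.061), without the filter on low counts (adjusted p = 0.085) and without TMM scaling (adjusted p = 0.056). OsBRI1 stood at -0.20 ± 0.086 (adjusted p = 0.063), OsBZR1 at 0.031 (95% interval -0.19 to 0.25) and D2 at -0.18 (-0.55 to 0.18).

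At 3 mm and high temperature 2 of the 8 genes were called, OsBZR1 higher and BRD1 lower in tap, where 37.1% of tested loci were called, 19.3% higher and 17.8% lower. The median log2 difference was -0.078 over the 8 genes and 0 over all tested loci. OsBZR1 had 143, 163 and 166 CPM in tap against 143, 115 and 135 CPM in WT, with a log2 difference of 0.27 ± 0.10 (SE, edgeR adjusted p = 0.043). BRD1 had 16.8, 13.2 and 18.7 CPM in tap against 20.1, 19.2 and 21.3 CPM in WT, a difference of -0.31 ± 0.12 (adjusted p = 0.035). The OsBZR1 groups overlapped at one edge and the BRD1 groups did not. With the 6 compared libraries alone neither was called (adjusted p = 0.10 for OsBZR1 and 0.12 for BRD1). The OsBZR1 call was lost without tap replicate 2 (0.22) or 3 (0.23) or WT replicate 2 (0.18) or 3 (0.29). The BRD1 call was lost without tap replicate 1 (-0.33) or 2 (-0.20) or WT replicate 1 (-0.32) or 3 (-0.28). DLT was at -0.048 there (95% interval -0.27 to 0.18), GSK2 at -0.14 (-0.31 to 0.022) and D11 at -0.11 (-0.36 to 0.14).

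At low temperature the synthesis gene D11 had the largest genotype difference of the 8 genes at each length. In 2 mm inflorescences 2 genes were higher in tap and 0 lower, where 7.67% of tested loci were higher and 7.3% lower. The median log2 difference was 0.094 over the 8 genes and 0.0077 over all tested loci. D11 had 169, 116 and 121 CPM in tap against 87.4, 73.6 and 78.4 CPM in WT, 1.69-fold higher, with a log2 difference of 0.76 ± 0.12 (SE, edgeR adjusted p = 2.5e-05). Among all tested loci 5.19% were higher by at least as much. Without tap replicate 1, the highest library, the difference was 0.57 (adjusted p = 0.00088). OsBZR1 had 370.4, 367 and 344 CPM in tap against 299.9, 281 and 296 CPM in WT, with no overlap and a log2 difference of 0.30 ± 0.10 (adjusted p = 0.044). Its call was lost whichever of the 6 libraries was left out, at 0.27 to 0.33 (highest adjusted p = 0.15), and also without TMM scaling (0.28, adjusted p = 0.067) or the filter on low counts (0.29, adjusted p = 0.059). By edgeR's test 3 genes had an unadjusted p under 0.05, D11, OsBZR1 and GSK2, and the share of all loci under that rule is not given. GSK2 was lower in tap, at -0.17 (adjusted p = 0.18), with all tap libraries below the WT libraries.

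In 3 mm inflorescences at low temperature 0 of the 8 genes were called by edgeR, where 11.7% of tested loci were. By an unadjusted p under 0.05 there were 2, DLT and D11, with no share over all loci given for that rule. DESeq2 called 0, where it called 12.8% of loci. The median log2 difference was 0.040 over the 8 genes and -0.0013 over all tested loci. D11 had 91.3, 117 and 128 CPM in tap against 93.6, 90.4 and 90.6 CPM in WT, a difference of 0.29 (95% interval 0.045 to 0.54, adjusted p = 0.11). With a library left out it was called in 1 of 6 fits, at 0.42 without tap replicate 1 (adjusted p = 0.024), and was lowest at 0.19 without tap replicate 3 (adjusted p = 0.46). DLT had 186, 179 and 168 CPM in tap against 202, 180.1 and 240.1 CPM in WT, a difference of -0.23 (-0.44 to -0.0099, adjusted p = 0.16). Without WT replicate 3, the highest library, it was -0.11 (adjusted p = 0.62). The intervals of the receptor genes were narrower, at -0.086 to 0.28 for OsBRI1 and -0.20 to 0.17 for OsBAK1.

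**Figure D3:**
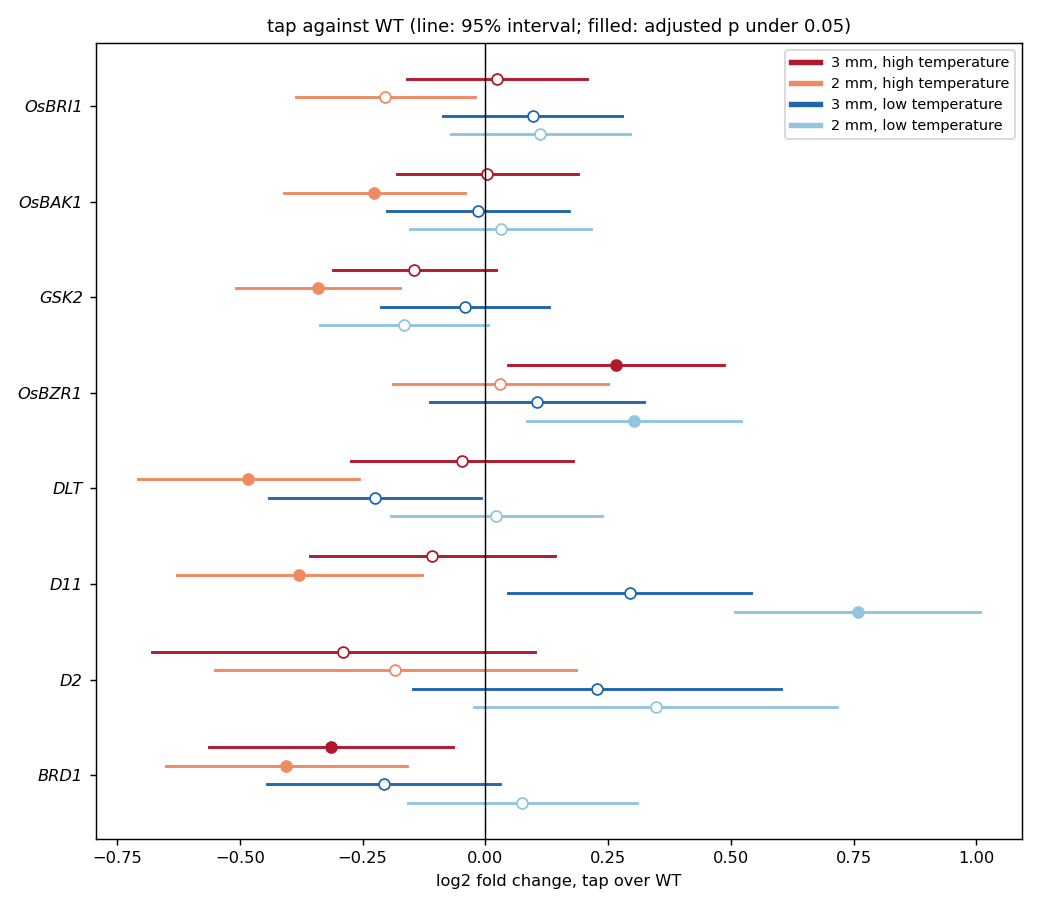
Log2 fold change of each gene, tap over WT, at each length and temperature, where lines are 95% intervals and filled points have an adjusted p under 0.05 in edgeR. At 2 mm D11 lies at -0.38 at high temperature and at 0.76 at low temperature, and the 5 filled points of 2 mm and high temperature are all below 0.

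Whether the genotype difference depended on temperature was tested as an interaction, the log2 difference of tap and WT at high temperature minus that at low temperature. At 2 mm 3 of the 8 genes were called, all with a lower value of tap at high temperature, where 26.8% of tested loci were called and 13.6% in that direction. DESeq2 called 4, with OsBRI1 added, where it called 26.5% of loci. D11 had the largest interaction, -1.14 ± 0.17 (SE, edgeR adjusted p = 6.7e-06), and 5.5% of tested loci had one at least as low. The value lay between -1.24 and -0.95 when single libraries were left out, and the call remained each time. DLT had -0.51 ± 0.15 (adjusted p = 0.011), called in all 12 such fits, and 18.1% of tested loci had one at least as low. BRD1 had -0.48 ± 0.16 (adjusted p = 0.025), with 19.1% of tested loci at least as low. The BRD1 call was lost without tap replicate 1 at low (-0.36), WT replicate 2 at low (-0.45), tap replicate 2 (-0.41) or 3 (-0.45) at high, or WT replicate 1 (-0.42) or 2 (-0.43) at high temperature. OsBRI1 was at -0.32 ± 0.12 (adjusted p = 0.053). It was called in 1 of the 12 fits, at -0.36 without WT replicate 2 at low temperature (adjusted p = 0.0498), and was at -0.24 without WT replicate 2 at high temperature (adjusted p = 0.22).

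At 3 mm 0 interactions were called among the 8 genes by edgeR, where 26.4% of tested loci were called. An unadjusted p under 0.05 was found for 1 gene, D11, with no share over all loci given for that rule. DESeq2 called 0, where it called 25.7% of loci. The median interaction was -0.088 over the 8 genes at 3 mm and -0.40 at 2 mm, against 0.0035 and -0.0024 over all tested loci. D11 was at -0.40 ± 0.17 (SE, adjusted p = 0.073) at 3 mm. With a library left out it was called in 1 of 12 fits, at -0.53 without tap replicate 1 at low temperature (adjusted p = 0.018), and was at -0.29 without tap replicate 3 at low temperature (adjusted p = 0.23). Without TMM scaling it was called at -0.44 (adjusted p = 0.049). DLT was at 0.18 (95% interval -0.13 to 0.49) and BRD1 at -0.11 (-0.45 to 0.24). Whether the interactions differed between the lengths was not tested.

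Between 3 mm and 2 mm inflorescences edgeR called 0 or 1 of the 8 genes in each comparison. In tap at high temperature 1 of the 8 was called, D2, where 2.21% of tested loci were called. Its 3 mm libraries had 4.51, 4.75 and 5.64 CPM, against 6.31, 9.23 and 8.11 CPM at 2 mm, a log2 difference of -0.66 ± 0.18 (SE, edgeR adjusted p = 0.046). The call was lost without replicate 2 (-0.57) or 3 (-0.67) at 2 mm, without replicate 1 (-0.62) or 3 (-0.76) at 3 mm, and with the 6 compared libraries alone (-0.68, adjusted p = 0.19). In WT at high temperature 1 gene was called, OsBZR1, where 6.37% of loci were called. It had 143, 115 and 135 CPM at 3 mm and 155, 162 and 190.0 CPM at 2 mm, with -0.37 ± 0.10 (adjusted p = 0.027). That call was lost without replicate 2 (-0.40) or 3 (-0.28) at 2 mm, without replicate 2 (-0.28) at 3 mm, and with the 6 libraries alone (-0.38, adjusted p = 0.058). D2 was at -0.56 ± 0.18 (adjusted p = 0.055) in the same comparison. With a library left out it was called in 1 of 6 fits, at -0.68 without replicate 1 at 2 mm (adjusted p = 0.027), and was at -0.40 without replicate 2 at 2 mm (adjusted p = 0.32). In WT at high temperature 0 of the 8 values were above 0, with a median of -0.25 against 0.0036 over all tested loci. The value nearest 0 was that of OsBRI1 (-0.0087), and 46.2% of tested loci were at least as low. By edgeR's test 4 genes had an unadjusted p under 0.05 there, and the share of all loci under that rule is not given. DLT was at -0.30 (adjusted p = 0.087), BRD1 at -0.25 (adjusted p = 0.21) and D11 at -0.24 (adjusted p = 0.25).

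At low temperature, BRD1 was the 1 gene called between the lengths in tap, where 1.33% of tested loci were called. It had 24.3, 26.8 and 30.7 CPM at 3 mm and 42.5, 34.8 and 32.9 CPM at 2 mm, a log2 difference of -0.43 ± 0.11 (SE, edgeR adjusted p = 0.044). Without replicate 1 at 2 mm it was -0.31 (adjusted p = 0.43). The call was also lost without replicate 2 at 2 mm (-0.47) and without replicate 1 (-0.35) or 2 (-0.42) at 3 mm. In WT at low temperature 0 genes were called by edgeR and 0 by DESeq2, with 0 at an unadjusted p under 0.05 by either tool, where 0.368% of loci were called by edgeR and 0.639% by DESeq2. The WT differences ranged from -0.15 for BRD1 (95% interval -0.38 to 0.087) to 0.20 for D11 (-0.051 to 0.45).

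In the order of the 8 group means, all 4 high-temperature groups of OsBRI1, OsBAK1 and GSK2 lay above all 4 low-temperature groups without overlap of libraries, and the reverse held for OsBZR1 and DLT. Of all tested loci, 14.6% had every high-temperature library above every low-temperature one and 18.3% had the reverse. Within the high-temperature groups of OsBRI1 the means ran from 566 ± 43.7 CPM in tap at 2 mm to 659 ± 54.2 CPM in tap at 3 mm (SD, n = 3), and tap at 2 mm stood apart from the other 3, which overlapped. For DLT, WT at 2 mm was apart from the other high-temperature groups at 55.5 ± 0.412 CPM, and those overlapped between 39.7 ± 2.51 and 45.0 ± 4 CPM. D2 groups overlapped with their neighbours throughout, from 4.97 ± 0.596 CPM in tap at high temperature and 3 mm to 8.93 ± 1.69 CPM in WT at high temperature and 2 mm. BRD1 ran from 16.2 ± 2.79 CPM in tap at high temperature and 3 mm to 36.7 ± 5.1 CPM in tap at low temperature and 2 mm, and its lowest low-temperature group, tap at 3 mm, overlapped with WT at high temperature and 2 mm.

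Likeness between the genes was described with Pearson's r of log2 CPM over the 12 libraries of each temperature, which come from the same 4 groups of 3, so that r reflects group differences and shared libraries, and it carries no test. At high temperature D11 and BRD1 were most alike (r = 0.86), followed by DLT and D11 (0.78), DLT and BRD1 (0.75) and OsBAK1 and GSK2 (0.72). GSK2 stood at 0.71 with D11 and 0.66 with DLT, and D2 at 0.62 with BRD1. At low temperature D11 was at 0.26 with BRD1, at -0.21 with DLT and at -0.67 with GSK2, while it was at 0.77 with OsBZR1. The pair of D11 and GSK2 thus had r of opposite sign in the temperature sets. This was not particular to that pair. OsBAK1 with GSK2 was at -0.52 at low temperature, and GSK2 with BRD1 went from 0.59 at high to -0.25 at low temperature. OsBRI1 with DLT went from 0.27 to -0.62. Other pairs kept their sign, among them D11 with BRD1.

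**Figure D4:**
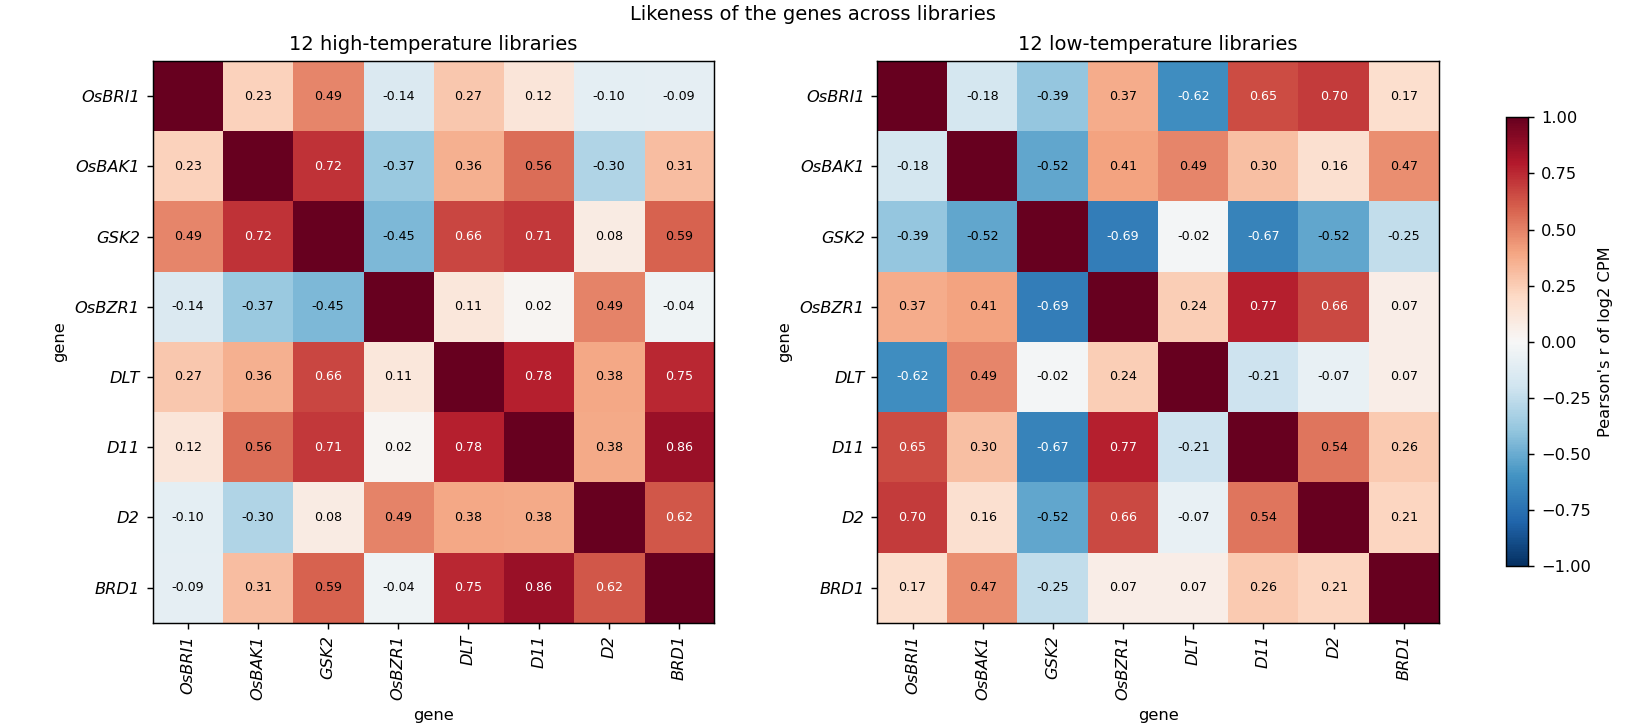
Pearson's r of log2 CPM for each pair of the 8 genes over the 12 high-temperature libraries (left) and the 12 low-temperature libraries (right), with red for positive and blue for negative r. The pairs among DLT, D11, BRD1 and GSK2 have r from 0.59 to 0.86 at high temperature, while at low temperature D11 and GSK2 are at -0.67. OsBAK1 with GSK2 (0.72) and D2 with BRD1 (0.62) lie in the same range at high temperature. Several pairs besides D11 and GSK2 differ in sign between the sets, such as OsBAK1 with GSK2 (-0.52 at low temperature).

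Among 16215 other loci with a mean of at least 5 CPM, the locus most like each gene over the 24 libraries, after centring within each temperature set, was found by Pearson's r. It was LOC_Os03g56270 for OsBRI1 (r = 0.89), LOC_Os01g12430 for OsBAK1 (0.80), LOC_Os12g38870 for GSK2 (0.87) and LOC_Os11g33050 for OsBZR1 (0.91). For DLT it was LOC_Os12g20324 (0.88), for D11 LOC_Os05g39160 (0.85), for D2 LOC_Os06g22380 (0.80) and for BRD1 LOC_Os07g32710 (0.89). These are the highest of 16215 values each and are given as a description. Within the high- and low-temperature sets, r was 0.91 and 0.85 for OsBRI1, 0.83 and 0.58 for OsBAK1 and 0.91 and 0.72 for GSK2. It was 0.96 and 0.79 for OsBZR1 and 0.88 and 0.89 for DLT. For D11 it was 0.76 and 0.91, for D2 0.90 and 0.70 and for BRD1 0.91 and 0.86.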

How the data were processed

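The authors deposited raw read counts per locus for 24 libraries in 1 table. The tools named in the submitters' processing notes are HTSeq, HISAT2 and Trimmomatic, with genome build IRGSP-1.0. Not given in the sources used here are versions, annotation and strand setting, so reads of overlapping or antisense loci cannot be told apart. RNeasy extraction and SMARTER library kits were used, per the labels' protocols.

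Every row summed to at least 10 counts over the low-temperature libraries, so rows had been chosen on that set. The 70 loci without high-temperature values were left out, and 23658 of 26410 loci passed filterByExpr. One edgeR 4.0.16 model (R 4.3.3, limma 3.58.1) with 8 group means, TMM scaling and robust quasi-likelihood dispersions had 16 residual degrees of freedom and gave 14 contrasts. P-values were adjusted by Benjamini-Hochberg over all tested loci. SEs are the log2 change divided by the root of F, and 95% intervals use 16 degrees of freedom. The intervals do not match edgeR's test exactly and can be wider. GSK2, tap over WT at 2 mm and low temperature, had an unadjusted p of 0.048 by that test, with an interval of -0.34 to 0.0043. DESeq2 1.42.0 was an alternative. TMM factors were 0.905 to 0.978 at high and 1.03 to 1.08 at low temperature.

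The 8 genes and all lists were chosen with earlier results of these data known. Since no label ties replicates to separate plants, p-values reflect the spread among these samples alone, and that spread may be technical. The RefSeq table held 6 of the 8 names, on the chromosomes that the identifiers give, and 0 of 26480 identifiers. Lists of other pathway genes and tissue markers were therefore not counted, and no sequences are shown. The rule for named loci took all 8 genes and, for each, the 1 most similar locus.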

Additional observations from a re-analysis of the deposited data

Results flagged for a closer look

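At 2 mm the difference between tap and WT changed with temperature for 3 of the 8 genes, by the interaction term of edgeR's model. Of all tested loci 26.8% were called for this interaction, and 13.6% in the same lower direction. D11 had an interaction of -1.14 on the log2 scale (adjusted p = 6.7e-06), with a tap over WT difference of -0.38 at high and 0.76 at low temperature. DLT had -0.51 (adjusted p = 0.011), with -0.48 at high and 0.022 at low temperature. BRD1 had -0.48 (adjusted p = 0.025), with -0.41 at high and 0.076 at low temperature, and was called in only 6 of 12 fits with a library left out. High and low temperature are also separate sets of columns, and a part of the set in these interactions was not tested.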

How the results depend on the processing

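Over all alternatives tried, the count of called genes between temperatures was 7 to 8 in tap at 3 mm, 7 in tap at 2 mm, 6 in WT at 3 mm and 6 to 8 in WT at 2 mm, and that of the interaction at 2 mm was 2 to 4. In the alternatives that kept every replicate, 57.9% to 69.4% of loci were called between temperatures. For that interaction the share was 23.2% to 28.3%. Between tap and WT at high temperature and 3 mm the count of called genes, 2, was 1 without TMM scaling, 0 with the 12 libraries of 1 temperature, 0 with the compared groups alone, and 0 to 1 when 1 library was left out. Of all loci 37.3%, 33.4% and 31.2% were called in the first 3 of these fits, against 37.1%. At 2 mm and high temperature the 5 calls became 3 to 5 when 1 library was left out. At low temperature the 2 calls at 2 mm became 1 without the filter on low counts, 1 without TMM scaling and 1 whichever library was left out, and the 0 calls at 3 mm became 0 to 1. At 2 mm 13% of loci were called without the filter and 14.6% without TMM scaling, against 15%. The interaction at 3 mm had 1 call without TMM scaling and 0 to 1 with a library left out, against 0. Without TMM scaling 26.3% of loci were called there, against 26.4%. Between 3 mm and 2 mm in tap at high temperature, the 1 call became 0 with the 12 libraries of 1 temperature, 0 with the compared groups alone and 0 to 1 with a library left out. Calls over all loci also fell in the first 2 of these fits, to 0.397% and 0.193% from 2.21%. In WT at high temperature the 1 call became 0 with the 12 libraries of 1 temperature, 0 with the compared groups alone, 2 with DESeq2 and 0 to 2 with a library left out. Of all loci 3.98%, 5.22% and 7.62% were called in the first 3 of these fits, against 6.37%. In tap at low temperature the 1 call became 0 without TMM scaling, where 1.32% of loci were called against 1.33%, and 0 to 1 with a library left out. The cause of these changes was not tested, beyond the fewer samples of the smaller fits. For single genes, 0 called values changed sign under any alternative. The fits without TMM scaling and with the 12 libraries of 1 temperature were chosen after seeing the data.

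Replicate numbers are shared across groups, but same-numbered libraries deviated together at r over 0.1 in 9 of 36 pairs (r from -0.22 to 0.26), and in 0 of 12 comparisons for all pairs, so they were read as sharing only a number. Each library correlated best with its own number in 13 of 36 pairs. Between tap and WT at high temperature, replicates 1 and 2 had r of 0.23 and 0.22 at 3 mm and 0.24 and 0.26 at 2 mm. Replicate 3 had -0.11 and -0.00096 there, so a pairing of part of these libraries is not excluded. With the replicate block the count between lengths in WT at high temperature was 2 in place of 1, through D2 (-0.55, adjusted p = 0.044 by edgeR). OsBRI1 was added to the calls at 2 mm and high temperature (-0.20, adjusted p = 0.047) and to the interactions at 2 mm (-0.32, adjusted p = 0.038). The block ended 0 calls. D2 had the fewest counts of the 8 genes, 86 to 215 per library, and SEs of 0.17 to 0.26, and the part of depth in these SEs was not tested.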

Other observations

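In tap inflorescences of 2 mm at low temperature, replicate 1 was the highest library for D11, with 169 CPM against 116 and 121 CPM in replicates 2 and 3. It was also the highest for BRD1, with 42.5 CPM against 34.8 and 32.9 CPM. The same held for OsBRI1, with 456.7 CPM against 426.5 and 422.8 CPM, and for OsBZR1, with 370.4 CPM against 366.9 and 344.1 CPM. DLT in the same library had 188 CPM, between 183 and 208 CPM in the others. OsBAK1, GSK2 and D2 in that library also lay between the others.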
